A study of Mus musculus with 10 samples.

Results

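Small peptides made by and acting on blood vessels, their receptors and genes that mark the endothelium were followed in lungs of mice exposed to cigarette smoke. The 10 genes are Adm, Edn1 and Apln, which encode peptides, Ednrb, Aplnr and Kdr, which encode receptors, and Esm1, Nos3, Pecam1 and Vwf, which encode other proteins of the vessel lining. They were chosen by name, with earlier results of these data known. Every probe that carries 1 of these names in the scanner files, or has it as its current symbol through the accession given there, was taken. This gave 18 of the 41174 probes and 10 of the 27670 genes on the arrays, with Aplnr listed under its older name Agtrl1. Lung RNA of 5 female BALB/c mice that breathed cigarette smoke for 8 weeks was compared with that of 5 female BALB/c mice kept in room air. BALB/c is an inbred laboratory strain, the animals were delivered at 6 to 8 weeks of age, and smoke was given on 5 days a week as 2 exposures of 50 minutes a day with 12 cigarettes each. Each lung was measured on its own 2-colour Agilent array. Red was read as the lung RNA and green as a common reference, since the Y chromosome genes Ddx3y, Eif2s3y and Kdm5d were well above background in green on all 10 arrays of these female mice and in red on at most 2, with Uty above background in neither, and the lung genes Sftpc, Scgb1a1 and Ager were brighter in red, and every direction rests on this reading and on the scanner files as assigned to the samples. The authors' own table of processed values has its groups exchanged against those files, and with its columns taken as named all 10 genes would be higher with smoke, with a median log2 difference of 0.61.

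Adrenomedullin and apelin are peptides that widen vessels and act on endothelial growth and barrier function, and endothelin-1 is a peptide that narrows them. Adrenomedullin acts through Calcrl paired with Ramp2 or Ramp3, apelin through Aplnr, and endothelin-1 through Ednra on smooth muscle and Ednrb on endothelium, where Ednrb also clears the peptide from the blood. In the lung capillary bed, the large cells of gas exchange known as aerocytes express Ednrb and Apln, and the general capillary cells, which can divide and replace them, express Aplnr.

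Of the 10 genes, 5 were lower in smoke-exposed lungs at an adjusted p under 0.05 by limma (Adm, Esm1, Ednrb, Apln and Pecam1), against 905 of the 27669 genes tested (3.27%). Since the 10 genes were chosen with earlier results of these data known, this and the shares below are a description. None of the 10 was past that threshold and higher with smoke, where 1371 genes were (4.96%), since all 10 differences lay below 0; those of Kdr, Vwf, Nos3 and Edn1 lay above 0 with ratios scaled between arrays. The median log2 difference was -0.53 over the 10 genes and -0.0042 over all genes. For the 10 genes it was -0.12 with the probe of smallest spread in place of the brightest. That choice takes dimmer probes of Apln, Aplnr, Kdr, Pecam1 and Vwf. Those of Kdr, Pecam1 and Vwf were not well above background in red on all arrays. In Adm, Esm1 and Apln each smoke array was below each room air array, which held for 904 genes (3.27%). On all 5 slides, which hold the smoke and the room air array of 1 replicate number each, 6 of the 10 genes were lower with smoke, as were 3298 of all genes (11.9%). With the slide as a block, 6 of the 10 were lower and past the threshold, the added gene being Aplnr, against 1735 genes (6.27%). By probe, 7 of the 18 were past the threshold and lower, against 1113 of 41173 (2.7%). Over all probes 1793 were higher and 1113 lower; with the slide as a block 2792 were higher and 2227 lower, and with median centring in place of loess 687 were higher and 747 lower. The lower probes numbered 700 without smoke replicate 5 and 732 without room air replicate 3. By the exact Wilcoxon test, 0 of the 10 genes passed after adjustment, with 5 at an unadjusted p under 0.05 beside 5446 of the 41173 probes, where limma had 6 beside 7479. Each slide had its smoke array in place 1 and its room air array in place 2, so place and group cannot be told apart, and in bulk tissue fewer cells of a type and less RNA per cell cannot be told apart either.

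Levels are given as the log2 ratio of lung over reference after normalization, of the probe with the brightest red signal of each gene. Adm was at -0.18, -1.30, -0.85, -1.30 and -0.90 in room air replicates 1 to 5 and at -2.52, -2.51, -2.07, -2.24 and -2.20 in smoke replicates 1 to 5. All smoke lungs lay below all room air lungs, and room air replicate 1 was the highest of the 10. Adm fell by 1.40 on the log2 scale (SE 0.19, 95% interval -1.82 to -0.98, adjusted p = 0.00107), to 37.8% of the room air level. Within slides 1 to 5 the difference was -2.34, -1.21, -1.22, -0.95 and -1.30. It was lower with smoke on 5 of 5 slides, by most on the slide of room air replicate 1. Without that lung the difference was -1.22 (adjusted p = 0.000108, the lowest of 29 alternatives, which reached 1.00). Among the 27669 genes, Adm had the 4th lowest difference.

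Apln stood at 1.56, 1.60, 1.36, 1.80 and 1.80 with room air and at 1.06, 1.06, 0.74, 0.87 and 1.14 with smoke. The groups did not overlap, and the lowest lung in each was replicate 3. Apln fell by 0.65 (SE 0.10, 95% interval -0.87 to -0.44, adjusted p = 0.00203), to 63.6% of the room air level, and within slides 1 to 5 by -0.51, -0.54, -0.62, -0.93 and -0.66. A second probe of Apln gave a difference of -0.59 (adjusted p = 0.00266), with 5 of 5 slides lower. The remaining, much dimmer probe gave -0.05 (adjusted p = 0.813), with 3 of 5 slides lower, so the probes of Apln did not all show the fall. Its normalized log2 red signal with room air was 6.54, against 11.5 for the brightest Apln probe. A Kdr probe not well above background on any array had 5.87, so the dim Apln probe had little room to fall. With red signals alone and arrays scaled to their 75th percentile, the difference of Apln missed the threshold (adjusted p = 0.0925, range 0.000769 to 1.00 over 29 alternatives).

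Edn1 was at 2.55, 1.95, 2.63, 2.04 and 2.79 with room air and at 2.58, 2.42, 2.60, 2.15 and 2.17 with smoke. The smoke lungs lay inside the range of the room air lungs. Its difference was -0.01 (95% interval -0.38 to 0.36, adjusted p = 0.99), with 2 of 5 slides lower, and its sign turned under 11 of 29 alternatives, among them the ratios scaled between arrays (0.09), so Edn1 has no direction in these data. The plot of levels by sample shows Adm and Apln separating the groups and Edn1 not.

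**Figure D1:**
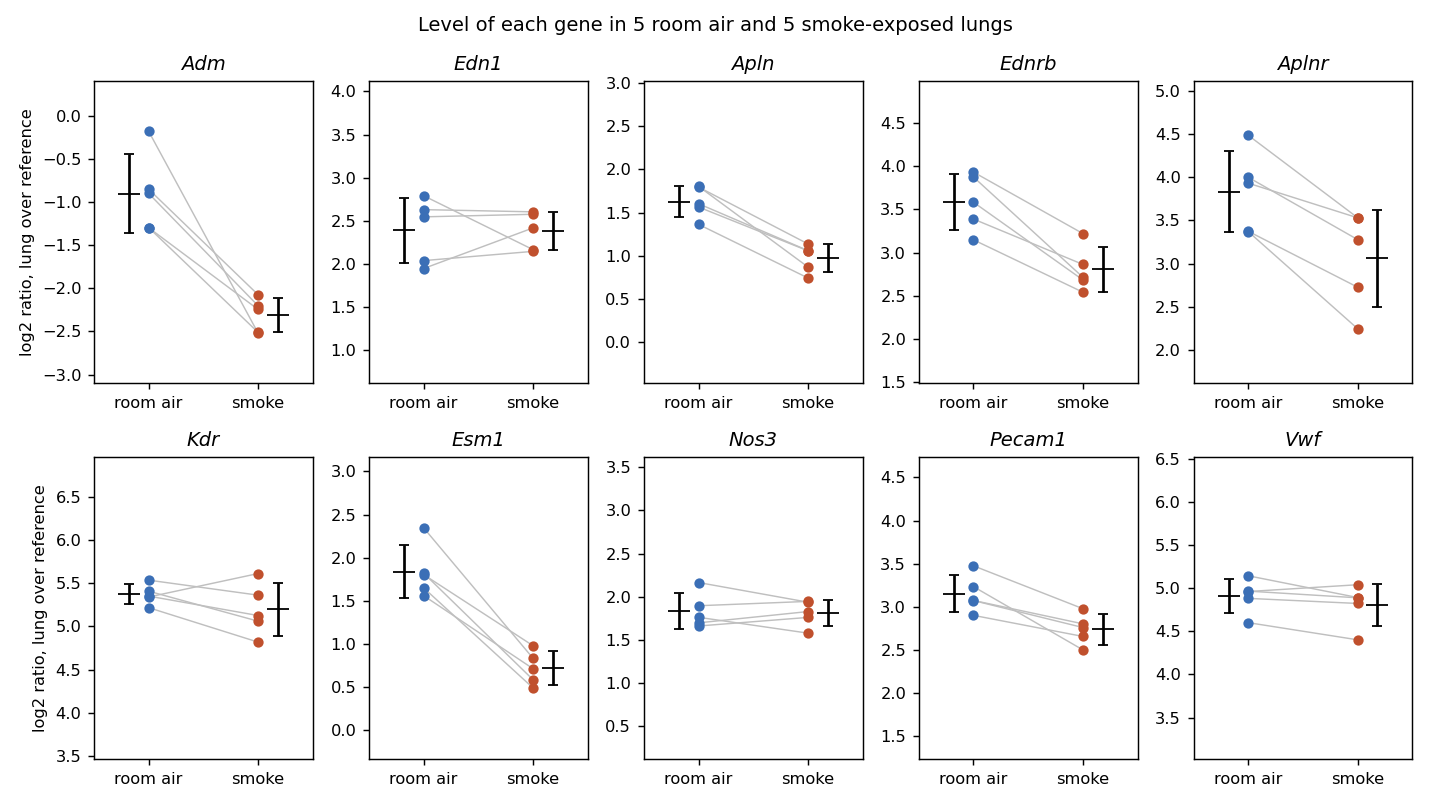
Log2 ratio of lung over reference for each of the 10 genes in 5 room air (blue) and 5 smoke-exposed (red) lungs, with a line joining the 2 lungs on 1 slide and a black bar for the group mean with its SD; every panel spans the same number of log2 units. The groups are apart in Adm, Apln and Esm1, and all 5 lines run downward in these and in Ednrb, Aplnr and Pecam1.

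Promoters of 4 of the genes are printed because the groups did not overlap in Adm, Esm1 and Apln and did in Edn1. The sequences are the 250 bases before the annotated start, from RefSeq on GRCm38.p6, and 6 of the 10 genes have one in the table used. They were searched on both strands for ACGTG and GCGTG, the core letters of the element through which low oxygen acts on genes; the motifs share their last 4 letters, and a stretch can match only 1 of them on a strand. Capitals mark the matches, which read CACGC where the motif lies on the minus strand of the gene. Adm, on the plus strand at chr7:110627407-110627656, has 2 matches of GCGTG, 90 and 54 bases before the start. Esm1, on the plus strand at chr13:113209409-113209658, has 1, 47 bases before the start. Edn1, on the plus strand at chr13:42301226-42301475, and Apln, on the minus strand at chrX:48034854-48035103, hold neither motif in this window.
Adm: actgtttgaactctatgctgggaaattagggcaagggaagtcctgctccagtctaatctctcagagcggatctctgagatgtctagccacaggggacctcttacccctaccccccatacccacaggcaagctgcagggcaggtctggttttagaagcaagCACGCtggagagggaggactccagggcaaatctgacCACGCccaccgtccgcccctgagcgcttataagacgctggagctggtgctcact
Esm1: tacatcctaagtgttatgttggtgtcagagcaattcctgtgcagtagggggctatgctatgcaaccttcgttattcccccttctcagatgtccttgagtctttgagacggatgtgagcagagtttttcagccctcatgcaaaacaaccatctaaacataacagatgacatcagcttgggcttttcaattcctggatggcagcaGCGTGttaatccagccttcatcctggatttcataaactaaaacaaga
Apln: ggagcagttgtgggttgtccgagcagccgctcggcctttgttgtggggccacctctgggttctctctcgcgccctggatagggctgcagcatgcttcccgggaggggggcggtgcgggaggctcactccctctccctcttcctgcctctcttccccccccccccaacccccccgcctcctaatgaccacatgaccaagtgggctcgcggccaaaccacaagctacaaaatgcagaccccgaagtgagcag
Edn1: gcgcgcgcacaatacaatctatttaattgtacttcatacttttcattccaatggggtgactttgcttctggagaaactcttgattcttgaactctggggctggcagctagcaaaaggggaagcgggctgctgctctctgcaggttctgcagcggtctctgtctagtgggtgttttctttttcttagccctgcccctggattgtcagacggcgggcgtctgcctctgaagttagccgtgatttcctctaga
Ednrb has 1 match of GCGTG, 99 bases before its start, and Kdr has 2, at 131 and 89 bases. In all, 4 of these 6 promoters held 1 of the motifs (66.7%), as did 12679 of the 32851 promoters of the table (38.6%), 16.6% with ACGTG and 28.2% with GCGTG. Aplnr, Nos3, Pecam1 and Vwf were not matched to the table. The probes themselves are placed by the scanner files on build mm7, an older assembly whose positions cannot be set against those above. On mm7 the brightest probe of Adm lies at chr7:106544845-106544904 and that of Esm1 at chr13:110373894-110373953, both on the plus strand, and those of Apln and Ednrb lie at chrX:43117668-43117727 and chr14:98247658-98247717 on the minus strand.

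Of the receptors, Ednrb was at 3.39, 3.88, 3.93, 3.15 and 3.58 in room air replicates 1 to 5 and at 2.86, 2.72, 3.22, 2.54 and 2.68 in smoke replicates 1 to 5. The groups overlapped only through smoke replicate 3, which lay above room air replicate 4. Ednrb fell by 0.78 (SE 0.16, 95% interval -1.14 to -0.42, adjusted p = 0.0134), to 58.2% of the room air level. Within slides 1 to 5 its difference was -0.53, -1.16, -0.71, -0.61 and -0.90, so it was lower on 5 of 5. The second probe of Ednrb had a difference of -0.42 and missed the threshold (adjusted p = 0.224), but not with a block for the slide (adjusted p = 0.0155), also with 5 of 5 slides lower. Ednrb was not past the threshold with the scanner software's own ratio (-0.92, adjusted p = 0.307) or with ratios scaled between arrays (-0.64, adjusted p = 0.0664), within a range of 0.00139 to 1.00 over 29 alternatives.

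Aplnr was at 3.93, 3.37, 4.48, 3.37 and 4.00 with room air and at 3.53, 2.73, 3.53, 2.24 and 3.28 with smoke. Its groups overlapped, and replicates 2 and 4 were the lowest lungs of both groups. The difference of Aplnr was -0.77 (SE 0.28, 95% interval -1.38 to -0.16) and did not pass (adjusted p = 0.151). Within slides 1 to 5 it was -0.40, -0.65, -0.95, -1.12 and -0.72. Aplnr was therefore lower on 5 of 5 slides and past the threshold once slides were blocked (SE 0.10, adjusted p = 0.00211, range 0.00211 to 1.00 over 29 alternatives). The dimmer probe of Aplnr had a difference of -0.31 and passed without a block (adjusted p = 0.0140), with 5 of 5 slides lower, although its green signal was well above background on only 1 of 5 arrays in each group.

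Kdr, the main receptor for VEGF-A on endothelium, had levels of 5.22 to 5.54 with room air and 4.82 to 5.61 with smoke. Smoke replicate 2 was the highest of the 10 lungs and smoke replicate 4 the lowest, so the smoke group spread wider (SD 0.30 against 0.12). Its difference of -0.17 (95% interval -0.45 to 0.11, adjusted p = 0.578, lower on 4 of 5 slides) lay above 0 with ratios scaled between arrays (0.08) and with the scanner software's ratio (0.03). A second probe of Kdr was not well above background on any of the 10 arrays in either channel.

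Esm1 encodes endocan, a proteoglycan secreted by endothelial cells that respond to VEGF. Its levels were 1.81, 2.35, 1.82, 1.65 and 1.56 with room air and 0.98, 0.84, 0.59, 0.49 and 0.72 with smoke. Each smoke lung was below each room air lung, and room air replicate 2 was the highest. Esm1 fell by 1.11 (SE 0.14, 95% interval -1.42 to -0.80, adjusted p = 0.000666), to 46.2% of the room air level. On slides 1 to 5 the difference was -0.82, -1.51, -1.23, -1.16 and -0.85, lower on 5 of 5. Esm1 had the 7th lowest difference of all genes, Ednrb the 50th, Aplnr the 51st and Apln the 107th.

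Pecam1, an adhesion molecule at the junctions of endothelial cells, was at 3.07, 3.07, 3.48, 2.90 and 3.24 with room air and at 2.80, 2.76, 2.98, 2.66 and 2.50 with smoke. The groups overlapped only in that smoke replicate 3 lay above room air replicate 4. Pecam1 fell by 0.41 (SE 0.11, 95% interval -0.66 to -0.17, adjusted p = 0.0488), and on slides 1 to 5 its difference was -0.27, -0.31, -0.50, -0.24 and -0.73. This call sat at the threshold. It was lost without room air replicate 2 (adjusted p = 0.0761), 3 (0.0910) or 5 (0.102) and without smoke replicate 1 (0.0864), 2 (0.0869), 4 (0.106) or 5 (0.119). Pecam1 passed in 9 of 29 alternatives (adjusted p = 0.0107 to 1.00), among them the block for the slide (adjusted p = 0.0112). A second, dim probe of Pecam1, well above background in red on 4 of 5 room air and 2 of 5 smoke arrays, had a difference of -0.18 (adjusted p = 0.296, lower on 4 of 5 slides).

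Nos3, the endothelial nitric oxide synthase, ranged from 1.66 to 2.16 with room air and from 1.58 to 1.95 with smoke. Its difference was -0.03 (95% interval -0.25 to 0.20, adjusted p = 0.949, lower on 2 of 5 slides) and was 0.06 with ratios scaled between arrays. Vwf, the clotting protein stored by endothelium, ranged from 4.60 to 5.14 with room air and from 4.40 to 5.04 with smoke. The groups overlapped almost fully in both genes. Vwf had a difference of -0.10 (95% interval -0.37 to 0.17, adjusted p = 0.790, lower on 4 of 5 slides), which was 0.13 with ratios scaled between arrays and -0.44 with the red channel alone after quantile normalization, where it passed (adjusted p = 0.0164, range to 1.00 over 29 alternatives). Its second probe had -0.24 (adjusted p = 0.405, or 0.0374 with a block for the slide, lower on 5 of 5 slides), and the remaining one was well above background in red on 0 of 5 room air and 2 of 5 smoke arrays. The brightest probes of Nos3, Kdr and Pecam1 were each printed as 10 spots, whose log2 ratios had a median SD within an array of 0.13, 0.14 and 0.14.

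**Figure D2:**
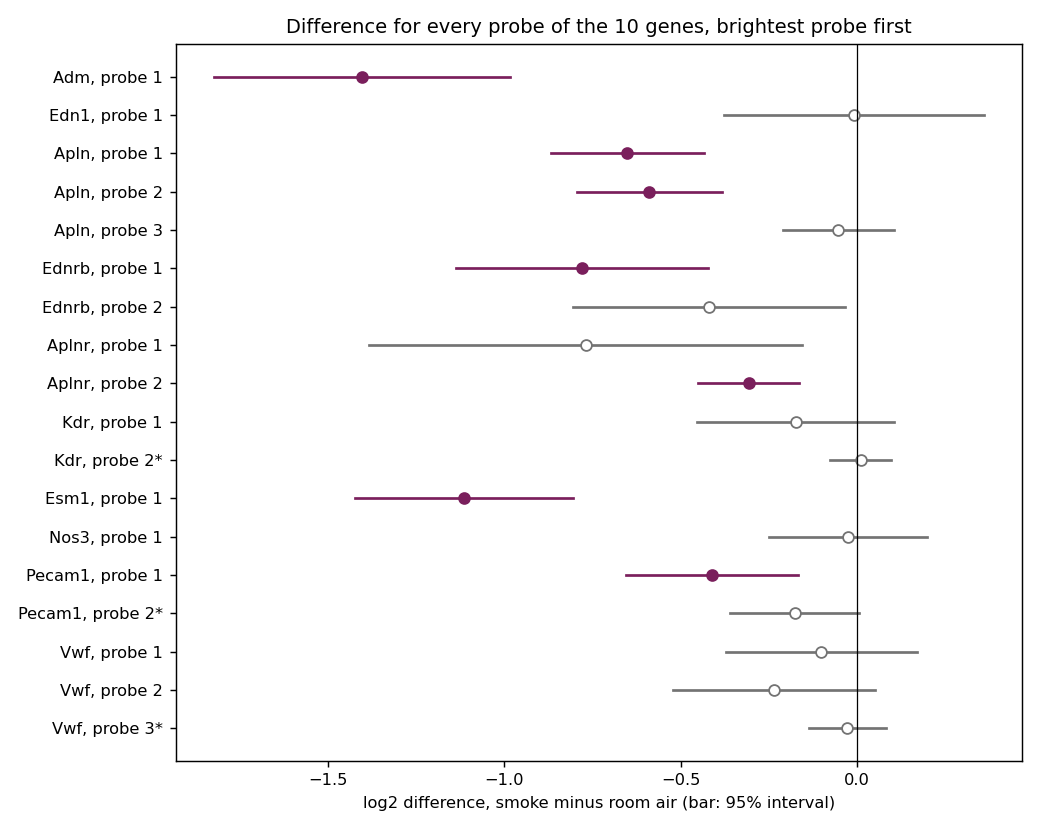
Log2 difference between smoke and room air for all 18 probes, by gene with the brightest probe first; bars are 95% intervals, filled points have an adjusted p under 0.05, and a star marks probes not well above background in red on all arrays. The 7 filled points lie between -1.40 and -0.31, and the probes of Apln, Ednrb and Aplnr differ in size within a gene.

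The channels were also looked at on their own, as normalized log2 signals. The red signal of Adm was lower with smoke by a difference of -1.36 (SE 0.24), that of Esm1 by -1.17 (SE 0.17), that of Ednrb by -0.78 (SE 0.15) and that of Apln by -0.60 (SE 0.14). Their green reference signals differed by 0.05 (SE 0.06), -0.05 (SE 0.09), 0.00 (SE 0.21) and 0.05 (SE 0.07). In Pecam1 the red signal differed by -0.75 (SE 0.15) and the green by -0.33 (SE 0.07). Vwf had -0.38 (SE 0.09) in red and -0.27 (SE 0.14) in green, and Kdr had -0.39 (SE 0.17) and -0.22 (SE 0.17). In these 3 genes the ratio shows less of a difference than red alone, and the green difference of Kdr was within its spread.

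**Figure D3:**
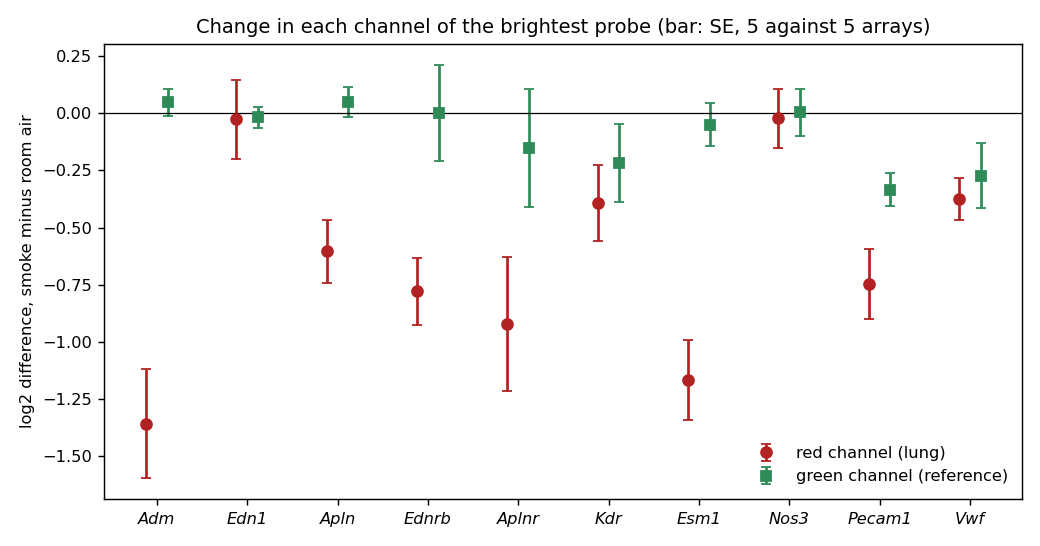
Difference between smoke and room air arrays in the normalized log2 signal of red (lung, circles) and green (reference, squares) for the brightest probe of each gene; bars are the SE of a difference between 5 and 5 arrays. Green stays near 0 for Adm, Apln and Esm1 and lies at -0.33 for Pecam1 and -0.27 for Vwf.

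The arrays varied together in some of these genes. Over the 10 arrays, with each group centred on its own mean, the 45 pairs of the 10 genes had a median Pearson r of 0.38 and a median Spearman rho of 0.36, and r was above 0 in 32 pairs. Apln with Nos3 was lowest in both (r = -0.72, rho = -0.71), Nos3 with Pecam1 highest in r (r = 0.88, rho = 0.81) and Edn1 with Pecam1 highest in rho (r = 0.74, rho = 0.87). Kdr varied with Vwf (r = 0.84, rho = 0.81) and Ednrb with Pecam1 (0.78, 0.81). Adm, whose groups did not overlap, did not vary upward with Esm1 (-0.38, -0.28) or Apln (-0.41, -0.52). The arrays share 5 slides, and these values are a description. Among 13088 genes bright in both channels, those most like Adm were Nek6 (r = 0.97, rho = 0.95), Pgs1 (0.96, 0.93) and B3gnt2 (0.95, 0.88). Those most like Esm1 were Eya3 (0.97, 0.95), Neu3 (0.96, 0.93) and Gatc (0.94, 0.90), and those most like Apln were Smarca1 (0.95, 0.93), Gins3 (0.94, 0.98) and Pou2f2 (0.92, 0.88). Macf1, Castor1 and Trim62 were most like Ednrb (0.97, 0.95 each), and Dhx38 (0.97, 0.90), Fzd3 (0.96, 0.90) and Serpine2 (0.95, 0.90) most like Pecam1. Of these 15 genes 3 passed: Nek6, like Adm within groups, was higher with smoke by 0.89 (adjusted p = 0.00107), and Macf1 was lower, at -0.59 (adjusted p = 8.37e-05), and B3gnt2 at -0.23 (adjusted p = 0.0155).

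Ranges of list medians below leave out the authors' table and other choices of probe. Of 10 genes of the adrenomedullin system 2 were lower, Adm and Calcrl, and 2 higher (4 and 3 with slides blocked). The median was -0.09, from -0.21 with the scanner software's ratio to -0.0237 with ratios scaled between arrays, where only Adm was lower, and -0.0426 without smoke replicate 4. Calcrl, which encodes the receptor for Adm, fell by 0.49 (adjusted p = 0.0119, 5 of 5 slides, past in 21 of 29 alternatives), and Ramp2, its main partner on endothelium, had -0.14 (adjusted p = 0.704), or 0.09 with ratios scaled between arrays. Ramp2 passed in 2 of 29 alternatives, with a lowest difference of -0.65, and its red and green signals differed by -0.63 and -0.49. Ramp3, the other partner, rose by 1.39 (adjusted p = 7.95e-06), and Calca, which encodes calcitonin and the related peptide CGRP, rose by 1.44 (adjusted p = 0.00562), both on 5 of 5 slides. Around Edn1 and Ednrb, the endothelin system had 8 genes with 2 lower and 0 higher (4 and 0 with slides blocked) and a median of -0.17, from -0.45 with red alone at the 75th percentile, with 1 lower, to -0.08 with ratios scaled between arrays, with 0 lower. Without room air replicate 4, 5 were lower, and with red alone after quantile normalization 3. Besides Ednrb it was Ece1, the enzyme that releases active endothelin, that fell, by 0.41 (adjusted p = 0.00335, 5 of 5 slides); it passed in 23 of 29 alternatives, and its probe with the smallest spread had -0.0427. Ednra had -0.17 (adjusted p = 0.118, 5 of 5 slides), or 0.01 with ratios scaled between arrays, and passed once slides were blocked (adjusted p = 0.0394) and without room air replicate 4 (adjusted p = 0.0378; 0.0178 to 1.00 over the alternatives). The ligand Edn3 had -0.17 (adjusted p = 0.177, 4 of 5 slides) and passed only without room air replicate 4 (adjusted p = 0.050, range to 0.697), and Edn2, dim on some arrays, had 0.14 (adjusted p = 0.354).

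Of the 10 genes of the VEGF system, whose signal Kdr carries, 1 was lower and 0 higher (2 and 0 with slides blocked), with a median of -0.07, from -0.17 with median centring to 0.03 with ratios scaled between arrays, and -0.0247 without room air replicate 2. Vegfa, the main ligand of Kdr, fell by 0.65 (adjusted p = 0.000202, 5 of 5 slides), as much as Apln. Flt1, Flt4, Pgf, Vegfb, Vegfc and Vegfd did not pass, and the signs of Flt1, Flt4, Vegfc and Vegfd depended on how the arrays were normalized. Around Nos3, 13 genes of the nitric oxide system had 3 lower and 1 higher (6 and 1 with slides blocked), with a median of -0.20, from -0.36 with red alone at the 75th percentile to -0.0301 with the scanner software's ratio, and -0.0915 without smoke replicate 4. Cav1, a membrane protein that holds Nos3 inactive, fell by 0.64 (adjusted p = 0.0011), Ddah2, which breaks down a natural inhibitor of Nos3, fell by 0.59 (adjusted p = 0.00128), and Gch1, which makes a cofactor of Nos3, rose by 1.14 (adjusted p = 0.00188), each on 5 of 5 slides. Pde5a, which breaks down cyclic GMP, fell by 0.49 (adjusted p = 0.0428, 5 of 5 slides), a call lost without room air replicates 1 to 4 or smoke replicates 1, 4 or 5 (adjusted p = 0.0557 to 0.110). Nos3 itself did not pass, and its partners that did moved in both directions. Of 22 genes of other vasoactive peptides, 10 of them dim in red on some arrays, 3 were lower and 0 higher (5 and 0 with slides blocked), and 1 was higher without room air replicate 1. They were Npr3 (-0.64, adjusted p = 0.000828), Agtr1a (-0.51, adjusted p = 0.0119) and Npr2 (-0.31, adjusted p = 0.0434), all on 5 of 5 slides; Npr2 was lost without room air replicates 2 to 5 or smoke replicates 1, 2, 3 or 5 (adjusted p = 0.052 to 0.101), and its probe with the smallest spread was higher (0.40, adjusted p = 0.00573).

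Pecam1, Kdr, Nos3 and Vwf stand among 26 pan-endothelial genes, of which 4 were lower, 0 higher (9 and 0 with slides blocked) and 25 below 0. Their median was -0.18, or -0.0872 with 19 below 0 without smoke replicate 4. With ratios scaled between arrays it was 0.04, with 1 gene lower and 10 below 0, and with median centring it was -0.26, with 1 gene lower and 26 below 0. With red alone it was -0.43 after scaling to the 75th percentile, with 8 lower, and -0.45 after quantile normalization, with 14 lower. Besides Pecam1, the lower ones were S1pr1 (-0.55, adjusted p = 0.00705), Tal1 (-0.44, adjusted p = 0.00397) and Cd34 (-0.38, adjusted p = 0.0142), all on 5 of 5 slides, and Cdh5, which defines endothelium, had -0.10 (adjusted p = 0.835). The summed red signal of the 26 genes was 346889, 399840, 427861, 404395 and 399074 in room air replicates 1 to 5 and 270482, 292493, 284195, 286842 and 262459 in smoke replicates 1 to 5, with Cldn5 the brightest at 17.5%. All smoke lungs had a lower sum than all room air lungs, and whether fewer endothelial cells had a part in the falls of Adm, Esm1, Ednrb, Apln and Pecam1 was not tested.

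Ednrb, Apln and Kdr are also among 9 aerocyte genes, of which 4 were lower (5 with slides blocked) and all 9 below 0, with a median of -0.23. With ratios scaled between arrays 2 were lower, 5 were below 0 and the median was -0.08, and with red alone after quantile normalization 7 were lower and the median was -0.47. Besides Ednrb and Apln, Chst1 fell by 0.56 (adjusted p = 0.000562) and Fibin by 0.23 (adjusted p = 0.0381), both on 5 of 5 slides, and Fibin was lost without room air replicates 2, 4 or 5 or smoke replicates 1, 2, 3 or 5 (adjusted p = 0.0613 to 0.10). Car4, the defining aerocyte marker, had -0.09 (95% interval -0.39 to 0.20, adjusted p = 0.832, 4 of 5 slides lower). The aerocyte sum was 42865, 50824, 49820, 50234 and 51041 with room air and 34241, 38037, 38593, 37324 and 36674 with smoke, without overlap, with Fibin the brightest at 22.7%. Aplnr, Edn1 and Vwf are among 9 general capillary genes, of which 1 was higher and 0 lower (1 and 1 with slides blocked), with 8 below 0 and a median of -0.13. The median was 0.0504 without smoke replicate 4, with 3 below 0, and ranged from -0.42 with red alone after quantile normalization, with 3 lower and 8 below 0, to 0.13 with ratios scaled between arrays, with 1 below 0. The higher gene was Lpl, a lipase that macrophages make too, which rose by 0.95 (adjusted p = 6.26e-05, 5 of 5 slides), and the defining Gpihbp1 had -0.16 (adjusted p = 0.834). Of 8 arterial genes 2 were lower (4 with slides blocked), Efnb2 (-0.71, adjusted p = 0.00103) and Hey1 (-0.58, adjusted p = 0.000179), both on 5 of 5 slides, and of 9 venous and 6 lymphatic genes 0 passed. Of the venous genes 2 were higher without room air replicate 1 and 1 was lower without room air replicate 4, 2 were lower with red alone after quantile normalization, and with ratios scaled between arrays 1 arterial gene was lower. General capillary, arterial, venous and lymphatic sums were 137581 to 171157, 41272 to 56874, 55718 to 80992 and 6012 to 10519 with room air and 119598 to 138115, 34593 to 40233, 49605 to 55879 and 7860 to 11939 with smoke, the brightest genes being Ptprb, Cxcl12, Icam1 and Lyve1.

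Adm, Esm1, Apln and Kdr are among 14 genes of tip cells, the leading cells of sprouting vessels, of which 5 were lower and 1 higher (7 and 2 with slides blocked), with a median of -0.23. With red alone the median was -0.43 at the 75th percentile, with 4 lower, and -0.41 after quantile normalization, with 8 lower. Besides Adm, Esm1 and Apln, Igfbp3 fell by 0.88 (adjusted p = 0.0116, 4 of 5 slides) and Angpt2 was lower, and the higher gene was Plaur; Angpt2 and Plaur were named after their values were seen. The count of higher genes was 0 without room air replicates 2, 3, 4 or 5 or smoke replicates 1, 3, 4 or 5, and also with median centring, an offset of 16, the scanner software's ratio or red alone at the 75th percentile. Adm and Edn1 are among 21 hypoxia response genes, of which 2 were lower and 2 higher (4 and 3 with slides blocked), with a median of 0.09, or -0.01 with median centring, and 0 were higher with median centring or with ratios scaled between arrays. Without room air replicate 1 they were 3 lower and 4 higher, with a median of 0.0258. Adm and Vegfa were the lower ones, whereas Ndrg1 rose by 0.43 (adjusted p = 0.00315, past in 24 of 29 alternatives) and Hk2 by 0.69 (adjusted p = 0.0254), both on 5 of 5 slides, Hk2 being lost without room air replicates 2, 3 or 5 or smoke replicates 1, 3 or 5 (adjusted p = 0.0501 to 0.0711). Adm thus moved the other way from Ndrg1 and Hk2, and Edn1 did not pass.

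**Figure D4:**
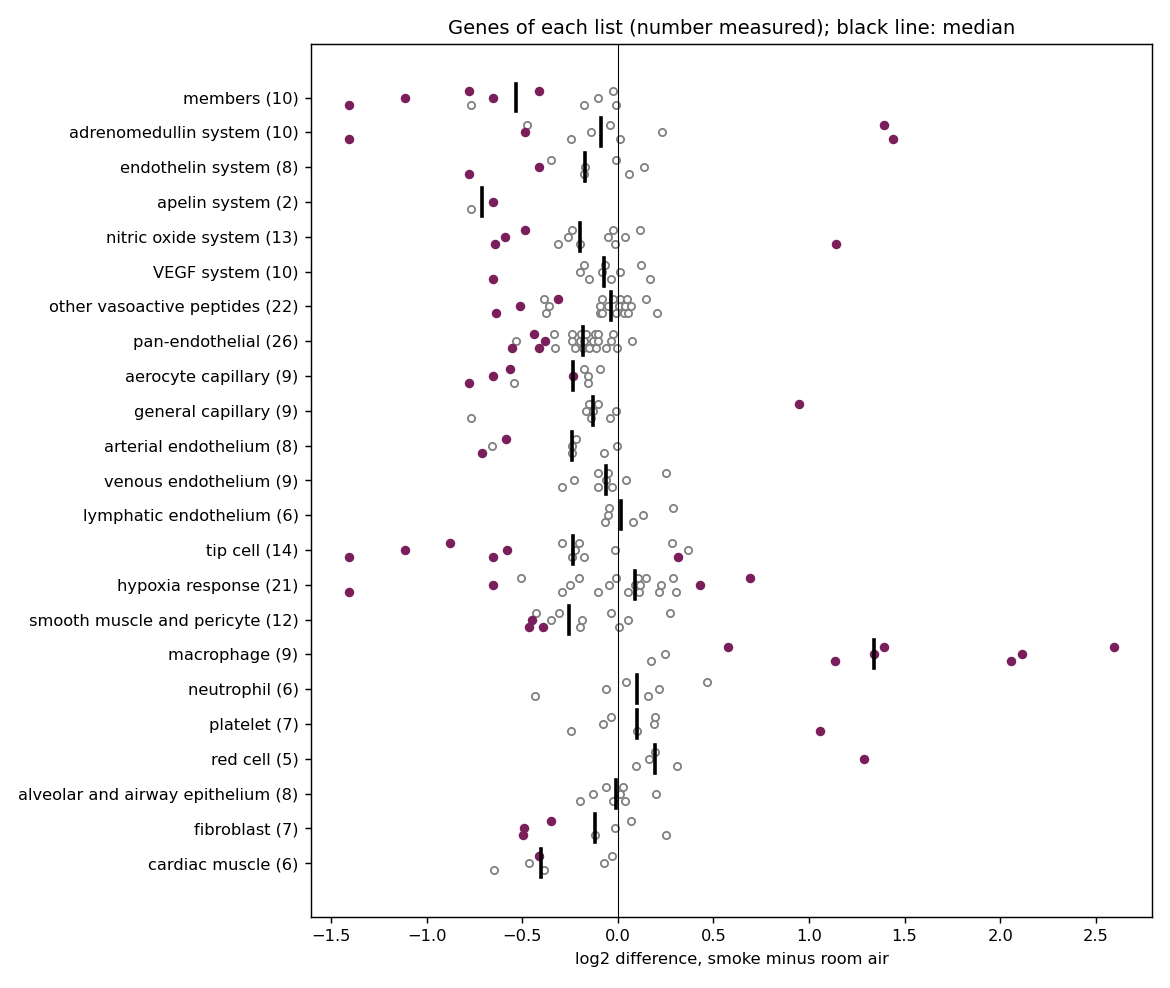
Log2 difference between smoke and room air for each gene of each list, with the number of genes measured, the median as a black line and genes with an adjusted p under 0.05 filled; some genes stand in several lists. The 10 genes have a median of -0.53 (-0.12 with the probe of smallest spread, which is dim in some genes), the pan-endothelial genes -0.18 (0.04 with ratios scaled between arrays) and the macrophage genes 1.34.

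While Adm, Esm1, Ednrb, Apln and Pecam1 fell, 7 of 9 macrophage genes rose and 0 fell, with a median of 1.34. Marco, the defining marker, rose by 2.60 (adjusted p = 0.00248), Chil3 by 2.12 (adjusted p = 0.000138), Cd68 by 2.06 (adjusted p = 6.92e-09) and Adgre1 by 1.39 (adjusted p = 8.40e-07), each on 5 of 5 slides. The macrophage sum was 448053, 421023, 450052, 347995 and 447186 with room air and 482592, 486261, 569978, 433453 and 534003 with smoke, with overlap, 83.5% of it from Lyz2, which did not pass. Of 12 smooth muscle and pericyte genes 3 were lower and 0 higher (6 and 1 with slides blocked, 5 and 0 without smoke replicate 3): Pdgfrb (-0.46, adjusted p = 0.000548), Notch3 (-0.39, adjusted p = 0.00607) and the defining Acta2 (-0.45, adjusted p = 0.00897, or 0.01 for its probe with the smallest spread), all on 5 of 5 slides. Their sum was 75450, 80565, 75722, 79575 and 77425 with room air and 57936, 59929, 64639, 56250 and 63552 with smoke, without overlap, with Acta2 the brightest at 27.9%. Of 7 fibroblast genes 5 were below 0, with a median of -0.12, and the defining Col1a1 had 0.25 (adjusted p = 0.467, 4 of 5 slides higher). Their median ranged from -0.24 with median centring to -5.1e-05 with the scanner software's ratio. It was -0.21 without smoke replicate 3 and -0.07 without room air replicate 3. The 3 that passed were lower on 5 of 5 slides, Pdgfra (-0.49, adjusted p = 5.95e-05), Dcn (-0.49, adjusted p = 0.0107, or 0.01 for its probe with the smallest spread) and Tcf21 (-0.35, adjusted p = 0.0492), the last being 0.01 with the scanner software's ratio and lost without any 1 array but room air replicate 4 (adjusted p = 0.0575 to 0.122). Of 6 cardiac muscle genes, all below 0 with a median of -0.40, Tnnt2 was lower (-0.41, adjusted p = 0.0493, 5 of 5 slides; 3 genes with slides blocked or without room air replicate 5), lost without any 1 array but room air replicate 5 (adjusted p = 0.0592 to 0.119) and 0.00 for its probe with the smallest spread. The cardiac median ranged from -0.68 with red alone after quantile normalization to -0.22 without room air replicate 1, with 5 below 0. Without smoke replicate 4 it was -0.25, with 4 below 0. Of 7 platelet and 5 red cell genes 1 each was higher, Pf4 (1.06, adjusted p = 0.0015) and Slc4a1 (1.29, adjusted p = 0.0144), both on 5 of 5 slides, and of 6 neutrophil and 8 epithelial genes 0 passed by limma. The platelet list had 1 lower gene with slides blocked and without smoke replicate 1, the neutrophil list 1 higher gene without room air replicate 1, and the call of Slc4a1 was lost with median centring and with the scanner software's ratio. Fibroblast, cardiac, platelet, red cell, neutrophil and epithelial sums were 41078 to 64067, 48967 to 77680, 6065 to 7941, 650699 to 944384, 21714 to 151409 and 1035630 to 1120810 with room air and 47102 to 56376, 35995 to 50010, 8021 to 11676, 879583 to 1013140, 34226 to 60488 and 968180 to 1049450 with smoke, the brightest genes being Col1a2, Myl7, Pf4, Hbb-b1, S100a9 and Sftpc. Room air replicate 1, the highest lung in Adm, also had the highest neutrophil sum, 151409, where the other room air lungs had at most 32536 and all smoke lungs more than that. All defining markers of these cells and of endothelium were well above background in red on all arrays. The part of any of these cells in the differences of the 10 genes was not tested.

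For the 10 genes themselves the summed red signal was 46260, 61007, 55101, 51670 and 50665 with room air and 35299, 39581, 37065, 36141 and 35014 with smoke, 54.8% of it from Vwf, whose ratio did not pass. The sums of the groups did not overlap. Adm and Esm1 were lower with smoke at an adjusted p under 0.05 in 26 of 29 alternatives, all but the exact Wilcoxon test and both readings of the authors' table. Ednrb and Apln passed in 24 of 29, and all 4 passed without any 1 of the 10 arrays.

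**Figure D5:**
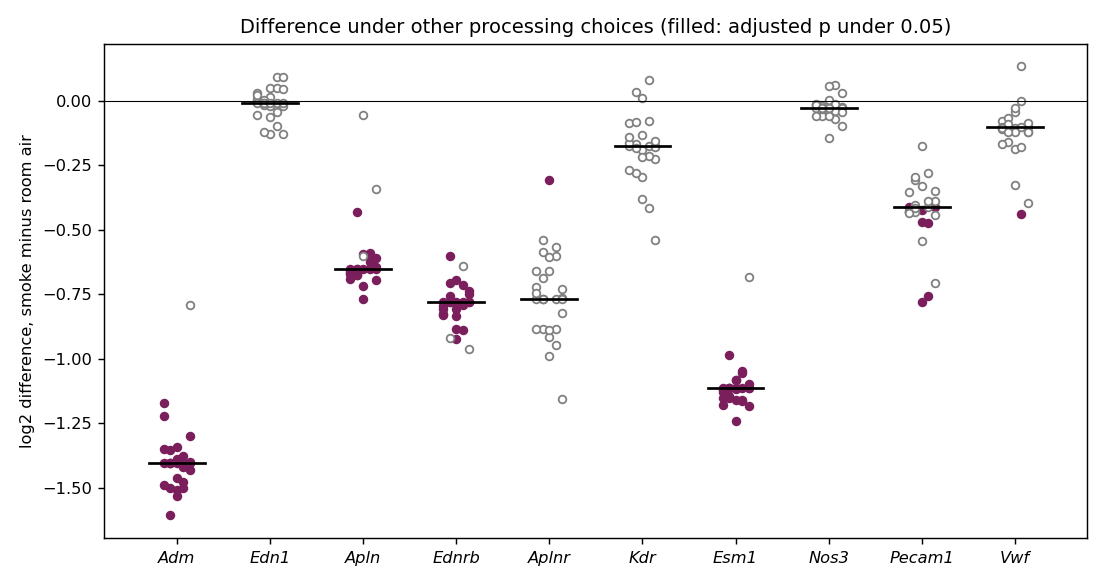
Log2 difference between smoke and room air for each gene as reported (black line) and the alternatives (points, filled at an adjusted p under 0.05); the exact Wilcoxon test, which keeps the difference, and the authors' table as named are left out. Adm stays between -1.61 and -0.79 and Esm1 between -1.24 and -0.68, while Edn1, Nos3, Kdr and Vwf have points on both sides of 0.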

How the data were processed

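Lung RNA of 10 mice, 5 per group, was measured on 2-colour Agilent arrays of 43379 spots besides controls. Per the file headers, Feature Extraction 9.5.3.1 gave mean spot intensities and median local background intensities, processed intensities after background subtraction and dye normalization, their log10 ratio, and 0 or 1 flags for outliers, saturation and signals well above background. The authors deposited a table of log2 values, found to be the mean log2 of both channels with column medians of 7.76 to 8.44. Its room air columns hold smoke arrays and the reverse when set against the scanner files. The table was not centred per array and was used only as an alternative. Its median log2 difference over all genes was 0.084 with columns as named and -0.084 by scanner file.

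In R 4.3.3 with limma 3.58.1, spot intensities were corrected by normexp with an offset of 50 and loess-normalized within arrays, spots flagged as outliers were set missing, and spots of a probe were averaged. Groups were compared on log2 red over green by lmFit and eBayes, two-sided, with Benjamini-Hochberg adjustment over 41173 probes and a threshold of 0.05. The brightest probe in red stood for a gene. Current symbols came from the accession for 22951 probes, from the name for 6659 and from a synonym for 3109, and 8455 kept the name given. Summed signals are red signals after quantile normalization. The fit was tested on simulated data. Each of the 5 slides held both arrays of a replicate number, and deviations from the group means correlated for arrays of the same number (0.157, 0.46, 0.461, 0.55 and 0.415) more than for others (median -0.124, highest 0.205), except that number 1 lay below that highest value.

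The 10 genes and all lists were chosen with earlier results of these data known. Of each list the text names the genes past the threshold, or the 4 with the largest difference where there were more, and ligands and receptors of a signalling list. Alternatives numbered 31, 29 set in advance and 2 added after seeing the data. They changed the test, block, threshold, background correction, normalization, channel, dim-probe filter, choice of probe and arrays used. Figures were drawn with Python 3.11.15 and matplotlib 3.10.9.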

Additional observations from a re-analysis of the deposited data

Results flagged for a closer look

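None of the 36 groups of 5 arrays formed by the 18 probes of the 10 genes had a lung far from the rest. Among 98 such groups of the other genes, 6 had 1, where chance alone gives about 1 in 20 groups. Ramp3 was at 0.15 in room air replicate 2, below the other room air lungs (0.47 to 0.57). Gch1 was at 0.54 in room air replicate 1, above the others (-0.48 to -0.39). Cd34 was at 0.72 in smoke replicate 2, above the others (0.45 to 0.52), and Hey1 at 4.02 in smoke replicate 1, above the others (3.78 to 3.82). Marco was at 4.97 in smoke replicate 4, below the other smoke lungs (5.92 to 6.13). Pdgfra was at 0.84 in smoke replicate 5, above the others (0.71 to 0.74). The 6 values fell on 6 different arrays, and the cause of none was tested.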

How the results depend on the processing

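Of 31 alternatives to the processing, 29 were set in advance and 2 were added after seeing the data: the authors' table with its columns given to samples by the scanner files, and the comparison without room air replicate 1 and smoke replicate 2 together. Each slide holds the 2 arrays of 1 replicate number, so a slide block groups the arrays as the replicate block does. The replicate block was a fixed term in the fit. The slide as a random block, a different model, was not run. A single gene has 29 of them, as the other 2 are thresholds for counts, except Edn3 with 26 and Flt4 with 27. For 56 genes, the 10 and 46 others, 1619 single values were computed under these alternatives: 1297 kept their direction and their side of the threshold, 220 kept the direction but no longer passed, 10 passed only there and 92 had the other sign. Of 236 summary values, 194 stayed near the reported one, 41 moved and 1 turned. All values below are log2 differences or counts, and the cause was not tested.

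Once arrays were paired by replicate number, as a block in the fit, 5019 probes passed in place of 2906, 2792 higher and 2227 lower, and of the genes in the lists 78 passed in place of 46. Among the 56 genes the pairing changed the call of Aplnr and Ednra and no other call.

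The exact Wilcoxon test with adjustment left 0 probes, 0 higher and 0 lower, 0 of the 10 genes and 0 genes of the lists, with 5446 probes at an unadjusted p under 0.05 against 7479 by limma; its smallest p is 0.00794 and its smallest adjusted p was 0.115. An adjusted p under 0.1 gave 1747 lower probes. With a fold change over 1.5 besides, 790 probes passed, 628 higher and 162 lower, and 23 genes of the lists. Median centring gave 1434 probes, 687 higher and 747 lower, and red alone at the 75th percentile 1757, 1143 higher and 614 lower. Red alone after quantile normalization had 72 genes of the lists. Both the scanner software's ratio and scaling between arrays had 3 of the 10 genes past the threshold, all 3 lower, beside 1015 and 765 lower probes of 41173. The median of the 10 genes was -0.12 with the probe of smallest spread. For Kdr, Pecam1 and Vwf that probe was not well above background in red on all arrays.

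Signs turned in these genes. Array weights: Edn1 (0.0153) and Nos3 (0.00184). Offset 16: Edn1 (0.00818). Scanner software's ratio: Edn1 (0.00299), Kdr (0.0349), Flt4 (0.34) and Tcf21 (0.00818). Scaling between arrays: Edn1 (0.0938), Nos3 (0.0602), Kdr (0.0789), Vwf (0.13), Ramp2 (0.0937), Ednra (0.00936), Vegfd (0.017) and Flt1 (0.0497). Probe of smallest spread: Kdr (0.0104, from a probe not well above background on any array), Npr2 (0.40), Acta2 (0.00839), Dcn (0.0135) and Tnnt2 (0.00134). Vegfc turned under median centring (-0.10), with red alone (-0.0373 and -0.0258) and in the authors' table by scanner file (-0.11). Without room air replicate 1 and smoke replicate 2 together: Edn1 (0.0214) and Vegfc (-0.0273).

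Leaving out 1 array at a time, the lower probes numbered 700 to 1449. Edn1 ranged from -0.12 to 0.0915, Vegfc from -0.0126 to 0.056, Nos3 from -0.0700 to 0.0559, Vwf from -0.18 to 0.0000568 and Flt4 from -0.13 to 0.0103. Adm, Esm1, Ednrb and Apln passed without any 1 array, with adjusted p of 0.000108 to 0.0046, 0.000425 to 0.003, 0.00564 to 0.0402 and 0.00137 to 0.00679.

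The authors' table as named passed 17 probes, 0 higher and 17 lower, 0 of the 10 genes, 0 of them lower, and 2 genes of the lists; none of the 10 was lower on all 5 slides (0), and their median was 0.61. By scanner file it passed 17 probes, 17 higher and 0 lower, 0 of the 10 genes and 2 of the lists. Its columns as named turned the sign of Adm (0.79), Esm1 (0.68), Edn1 (0.13), Ednrb (0.96), Apln (0.34), Aplnr (1.15), Nos3 (0.10), Kdr (0.54), Pecam1 (0.70), Vwf (0.40), Calca (-1.57), Calcrl (0.28), Ramp2 (0.59), Ramp3 (-0.83), Edn2 (-0.0893), Ednra (0.71), Ece1 (0.33), Gch1 (-0.56), Ddah2 (0.41), Cav1 (0.27), Pde5a (0.71), Vegfa (0.41), Vegfb (0.13), Vegfd (0.0544), Pgf (-0.0572), Flt1 (0.14), Agtr1a (0.80), Npr2 (0.30), Npr3 (0.52), Cd34 (0.31), S1pr1 (0.45), Tal1 (0.38), Fibin (0.24), Chst1 (0.37), Lpl (-0.43), Efnb2 (0.43), Hey1 (0.32), Igfbp3 (0.96), Ndrg1 (-0.19), Hk2 (-0.32), Acta2 (0.24), Pdgfrb (0.28), Notch3 (0.33), Cd68 (-1.09), Marco (-2.58), Adgre1 (-0.62), Chil3 (-0.93), Pf4 (-0.47), Slc4a1 (-1.88), Pdgfra (0.29), Dcn (0.32), Tcf21 (0.95) and Tnnt2 (0.49); by construction these columns hold the values of the other group.

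Between 64.9% and 77.5% of spots were well above background in red per array, with a median signal over background of 1.68 to 2.82, so differences of dim probes, such as the second of Kdr, cannot be read. The arrays measure RNA of whole lungs, 5 per group, and the SE of the 10 genes was 0.10 to 0.28. Place on the slide and group cannot be told apart, since smoke was always in place 1. Cell counts were not measured.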
